A study of Mus musculus with 18 samples.

Results

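Proteoglycans are proteins that carry sulfated sugar chains, and the 10 genes described here encode proteoglycans and related proteins of connective tissue and basement membranes. They were chosen by name: 7 small leucine-rich proteoglycans and their relatives (Dcn, decorin; Bgn, biglycan; Aspn, asporin; Lum, lumican; Fmod, fibromodulin; Prelp, a proline and arginine rich leucine-rich repeat protein; Ogn, osteoglycin) and 3 large ones (Vcan, versican; Hspg2, perlecan; Agrn, agrin). All 10 were found among the 32285 genes of the deposited count table, and 9 passed the filter on low counts. Lum did not, and is given by its counts.

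The small leucine-rich proteoglycans bind fibrillar collagen and set how its fibrils form, and decorin and biglycan also bind growth factors of the TGF-beta family. Biglycan that is released from the matrix is known as a ligand of Toll-like receptors on macrophages. Versican carries chondroitin sulfate and binds hyaluronan in loose, provisional matrix. Perlecan and agrin carry heparan sulfate and are built into basement membranes, which in the kidney lie under tubules, around vessels and in the glomerulus.

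RNA was sequenced in 18 libraries made from tissue cut out of frozen kidney sections of male C57BL/6 mice of the line iKspCre-Pkd1del, whose kidney-specific Cre is switched on by tamoxifen and removes exons 2 to 11 of Pkd1. Tamoxifen had been given by mouth at 12.5 mg/kg on postnatal days 18 and 19, and the mice were killed when MRI showed mild cysts. All 3 groups therefore carry the Pkd1 deletion and the tamoxifen treatment, and no group of wild-type kidneys is compared. The groups are non-cystic regions and 2 kinds of cystic region, called F4/80-low and F4/80-high after the signal of F4/80, a macrophage surface protein. Each group has 6 libraries, 2 from each of 3 kidneys. The labels give an age of 269 for kidneys 1 and 3 and of 297 for kidney 2, with no unit, and do not say whether the kidneys came from separate mice. The Cre is driven by a promoter of tubular epithelium, so the fibroblasts, vessel cells and macrophages in these regions are not its stated target.

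Library totals were 5366651 to 9002054 counts in the non-cystic set, 7186518 to 9188813 in the F4/80-low set and 5841975 to 8662288 in F4/80-high regions. Adgre1, the gene of F4/80, ran from 1.51 to 4.06 CPM (counts scaled to the size of the library) in non-cystic, from 3.14 to 14.7 in the F4/80-low set and from 34.8 to 75.2 in F4/80-high libraries, so the F4/80-high libraries stood apart and the other ranges overlapped. Pkd1 counts had no control group to be set against, and its levels overlapped between the groups (4.27 to 9.73, 4.79 to 11.0 and 4.89 to 14.2 CPM in the same order). Tubule markers took the opposite course: the summed level of 8 proximal tubule genes was 22820 to 48780, 22180 to 55220 and 294.3 to 8558 CPM. The share of mitochondrially encoded counts was 10.6 to 15.4%, 7.71 to 11.1% and 1.49 to 4.06%. Fewer cells of a type and less RNA per cell cannot be told apart in such tissue pieces.

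In GRCm38 (GENCODE M21), all 10 genes are protein coding, and several sit beside each other. Dcn (chromosome 10, 97479609 to 97518143, plus strand) lies 47.0 kb before Lum (97565128 to 97572703, plus strand). Aspn (chromosome 13, 49544443 to 49567565, plus strand) and Ogn (49608046 to 49624501, plus strand) are 40.5 kb apart, with Omd between them. Prelp (chromosome 1, 133910304 to 133921414, minus strand) and Fmod (134037254 to 134048277, plus strand) are 115.8 kb apart. Bgn lies on the X chromosome (73483602 to 73495933, plus strand) and Vcan on chromosome 13 (89655312 to 89742509, minus strand). Hspg2 (137468769 to 137570630, plus strand) and Agrn (156165290 to 156197488, minus strand) are both on chromosome 4. The counts here cover whole genes, so isoforms were not told apart. Library kits of the kind used do not mark strand, though the labels do not speak of strand. Prelp shares 350 exonic bases and Aspn 7 with a gene on the other strand, so reads of those bases may not be told apart.

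The members differed widely in promoter sequence. RefSeq promoters (GRCm38.p6) were found for 8 of the 10 members, and the 250 bases before the start are given for Agrn, Bgn and Aspn because they span the range. Capitals mark a GC box (GGGCGG on either strand) in Agrn and Bgn, and a TATA box (TATAAA on either strand) in Aspn.
Agrn, chr4:156197489-156197738, minus strand: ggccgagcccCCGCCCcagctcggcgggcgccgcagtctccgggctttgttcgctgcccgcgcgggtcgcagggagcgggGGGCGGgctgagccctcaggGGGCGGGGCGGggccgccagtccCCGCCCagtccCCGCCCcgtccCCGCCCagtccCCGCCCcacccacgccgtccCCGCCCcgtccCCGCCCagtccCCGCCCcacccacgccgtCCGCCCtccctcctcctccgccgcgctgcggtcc
Bgn, chrX:73483351-73483600, plus strand: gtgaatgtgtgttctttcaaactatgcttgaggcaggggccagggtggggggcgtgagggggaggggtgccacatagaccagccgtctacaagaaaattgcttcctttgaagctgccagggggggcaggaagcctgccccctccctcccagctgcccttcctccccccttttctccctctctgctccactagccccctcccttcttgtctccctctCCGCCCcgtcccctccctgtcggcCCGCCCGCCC
Aspn, chr13:49544193-49544442, plus strand: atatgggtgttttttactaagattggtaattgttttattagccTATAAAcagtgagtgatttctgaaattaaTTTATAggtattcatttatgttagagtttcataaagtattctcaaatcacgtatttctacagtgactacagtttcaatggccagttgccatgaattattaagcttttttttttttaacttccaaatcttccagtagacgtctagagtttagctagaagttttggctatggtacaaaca
The Agrn window shown held 12 GC boxes (of which 2 overlap) at 83.6% GC, and a further Agrn promoter in RefSeq (156186260 to 156186509) held 2 at 60.8%. The window of Hspg2 held 5 at 70.0%, that of Bgn 3 at 64.4% (of which 2 overlap), and that of Vcan 2 at 62.4%. None was found in the windows of Fmod, Prelp, Ogn and Aspn. Of 32851 RefSeq promoters of the same length, 32.7% held at least 1 GC box and 4.09% held 4 or more, and the median was 52.4% GC. TATAAA was found in 12.4% of all promoters, and among the members only in Ogn, where the 2 matches overlap on both strands, and in Aspn, with 2 separate matches. The letters TGANTCA, an AP-1 site, were in none of the 8 members and in 6.75% of all promoters. These matches are descriptions of the windows and were set against no binding data.

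Bgn was the most abundant member in every region type. On a scale per kilobase of exon, the order in non-cystic regions was Bgn (18.5 ± 6.83 CPM per kb, SD, n = 3 kidneys), Ogn (5.978 ± 1.503), Prelp (3.995 ± 1.772), Dcn (2.701 ± 1.151), Agrn (2.45 ± 0.193) and Hspg2 (0.732 ± 0.126). Aspn (0.124 ± 0.0502), Fmod (0.109 ± 0.0513), Lum (0.06344 ± 0.1099) and Vcan (0.0187 ± 0.00756) were lower still. In the cystic regions Dcn stood next to Bgn (8.44 ± 3.68 in the F4/80-low set and 15.2 ± 3.23 in F4/80-high regions), followed by Ogn, Prelp, Agrn and Hspg2. The step from Bgn to the next gene and the step from Agrn to Hspg2 were larger than the sum of the SDs in all 3 region types. Neighbours among Ogn, Prelp, Dcn and Agrn in these orders were not separated by that measure. Bgn took 57.8% ± 4.19 of the summed CPM of the 10 genes in non-cystic, 65.1% ± 1.57 in the F4/80-low set and 73.3% ± 4.72 in F4/80-high regions (SD, n = 3 kidneys). The level of Bgn per kb depends on the gene model: the merged exons span 6099 bases and the longest transcript 2666, and Bgn was first by both lengths.

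**Figure D1:**
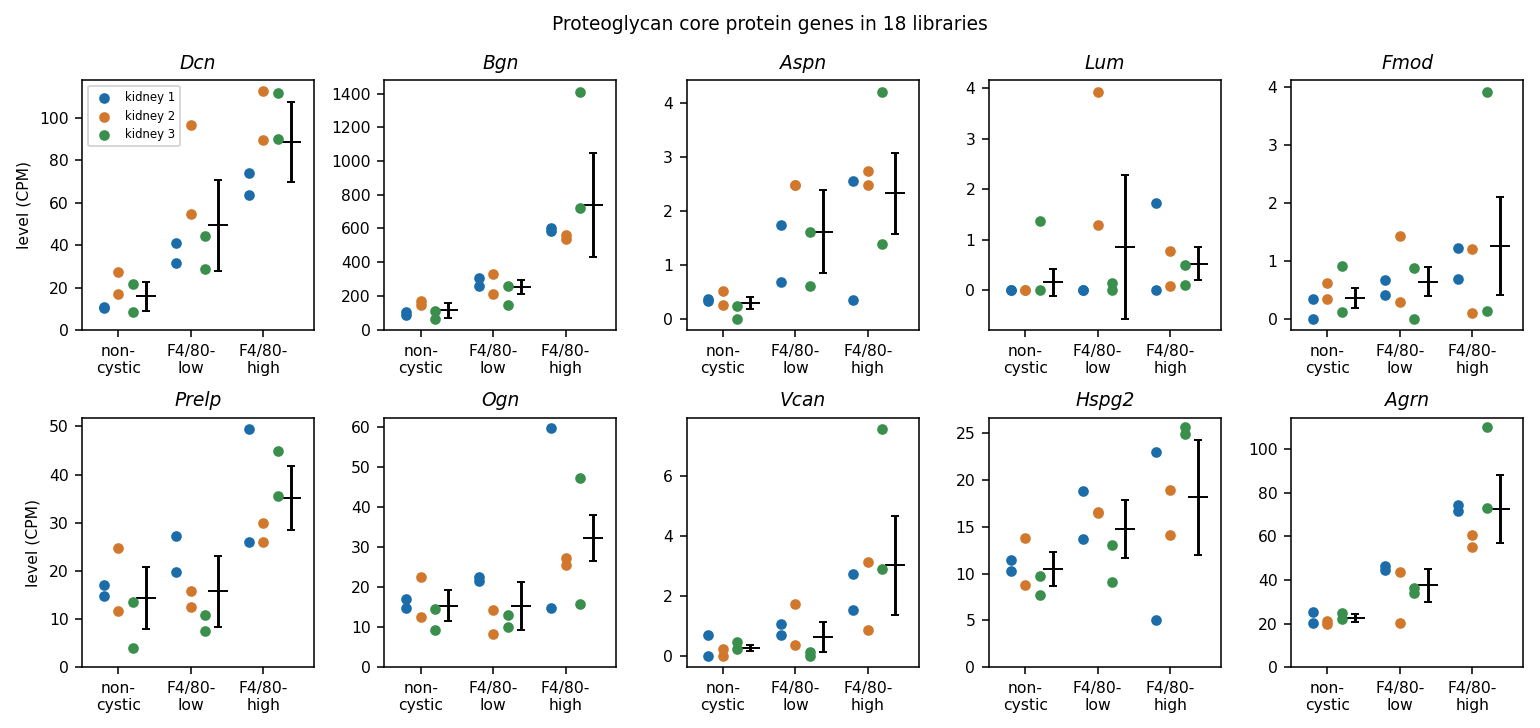
Levels of the 10 proteoglycan genes (CPM on library sizes scaled by edgeR, y axis) in the 3 region types (x axis); each point is a library, coloured by kidney, and the black mark and bar at the right of each set are the mean and SD over 3 kidneys. Dcn, Bgn and Agrn rise from non-cystic to F4/80-high regions, while the non-cystic and F4/80-low points of Ogn and Prelp overlap.

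The members were compared between region types to ask how the matrix around cysts differs from that of non-cystic tissue and how it differs with macrophage content. Between F4/80-high and non-cystic regions, 7 of the 9 tested members rose and 0 fell (edgeR quasi-likelihood test, Benjamini-Hochberg adjusted p below 0.05 over 16034 genes; 0 of 9 were lower at an unadjusted p below 0.05 and 0 by DESeq2). Of all genes tested, 19.7% were called higher and 19.5% lower in that comparison, so a called gene is common there. The median log2 fold change was 1.74 over the 9 members and 0.04 over all genes. Between F4/80-low and non-cystic regions 1 member (Dcn) rose and 0 fell, against 1.51% and 0.0249% of all genes; the median over the members was 0.87 against 0.00. Between F4/80-high and F4/80-low regions 5 members rose and 0 fell, against 10.3% and 14.0% of all genes, with a median of 0.94 against 0.04. Without kidney 1 the counts of members called were 4, 0 and 1 in the order given here. Since filtered members had to be detected somewhere, these medians describe the 9 genes and not the family as a whole. The 3 comparisons share their samples and are not independent. Scaling by total counts raised the median of all genes to 0.65 in the F4/80-high comparison with non-cystic and changed the split of calls there from 3156 higher and 3133 lower to 6608 and 1463. Between the cystic region types it changed from 1649 and 2246 to 4211 and 1120 (median 0.52), and to 2101 and 1855 with upper quartile factors (median 0.16). The 9 members stayed above the median of all genes in both F4/80-high comparisons under each of these scalings.

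**Figure D2:**
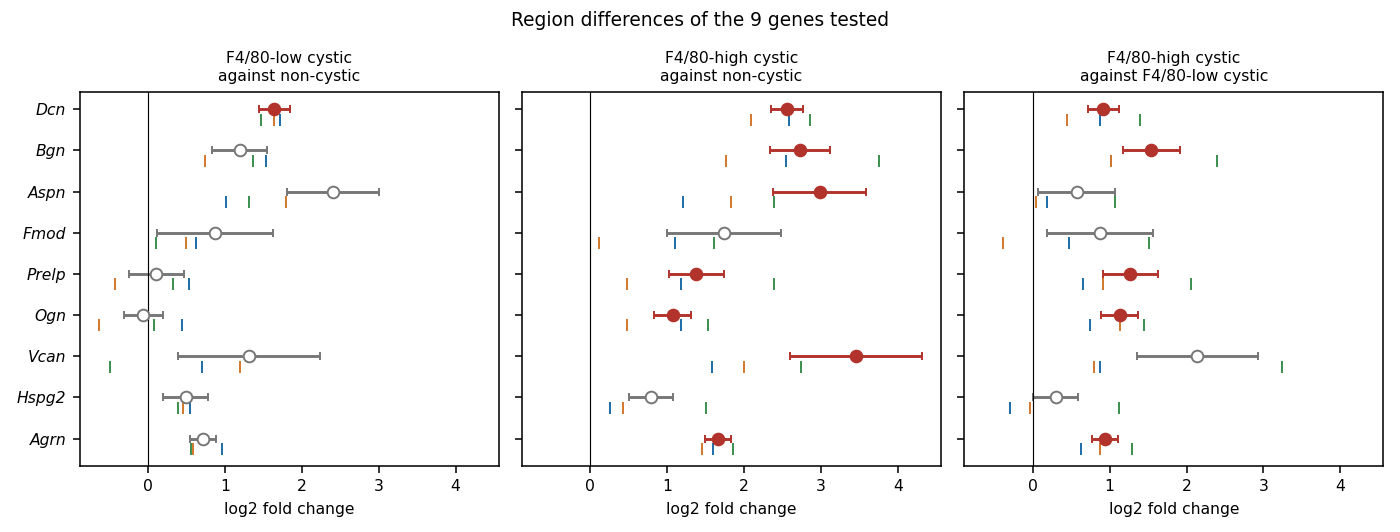
Log2 fold changes of the 9 tested proteoglycan genes in the 3 comparisons (x axis); circles are the fitted values with their SE, filled red where called, and the coloured ticks under each circle are kidneys 1 (blue), 2 (orange) and 3 (green) as differences of log2(CPM + 0.5), which understate low genes. All 9 circles lie to the right of 0 against non-cystic regions in the F4/80-high panel.

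Dcn, whose protein coats collagen fibrils, rose at each step. Its libraries ran from 8.53 through a median of 13.8 to 27.3 CPM in the non-cystic set, from 28.7 through 42.6 to 96.5 in the F4/80-low set and from 63.7 through 89.6 to 112.5 in F4/80-high regions. The non-cystic libraries lay wholly below both cystic sets, and the cystic sets overlapped through 1 F4/80-low library of kidney 2. The kidney means were 15.8 ± 6.72, 49.3 ± 21.5 and 88.8 ± 18.8 CPM (SD, n = 3). The log2 fold change against non-cystic regions was 1.64 ± 0.20 (SE, adjusted p = 0.006495) in the F4/80-low set and 2.56 ± 0.21 (adjusted p = 4.66e-05) in F4/80-high regions. The step between the cystic types was 0.92 ± 0.20 (adjusted p = 0.01003). Dcn was the member that passed in the F4/80-low comparison, and it passed there neither without the kidney block (1.64, adjusted p = 0.05457) nor without kidney 1 (1.58, adjusted p = 0.1482). The step between the cystic types was not called without the block (0.85, adjusted p = 0.09846) or without kidney 1 (0.94, adjusted p = 0.08093), nor with the 2 region types fitted alone (0.91, adjusted p = 0.05167).

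Bgn, a close relative of decorin, had the largest differences in CPM among the members. Its libraries ran from 64.8 through 106.4 to 166.7 CPM in the non-cystic set, from 146.4 through 260.3 to 331.4 in the F4/80-low set and from 535.2 through 594.8 to 1412 in F4/80-high regions. All F4/80-high libraries lay above all others, while 1 non-cystic library of kidney 2 lay above the lowest F4/80-low library. The kidney means were 113.0 ± 41.7, 253.9 ± 41.5 and 738.8 ± 306.6 CPM, with kidney 3 the highest in F4/80-high regions. Against non-cystic regions the log2 fold change was 2.72 ± 0.39 (adjusted p = 0.000756) in F4/80-high regions and 1.19 ± 0.36 (adjusted p = 0.2016) in F4/80-low regions. Between the cystic types it was 1.54 ± 0.37 (adjusted p = 0.01655), which was not called without kidney 1 (1.81, adjusted p = 0.0775) or with the 2 region types fitted alone (1.47, adjusted p = 0.05417).

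Aspn, a relative of both that has an aspartate-rich end and binds collagen, was low in all tissue: its 6 libraries gave 11 counts in the non-cystic set, 71 in the F4/80-low set and 133 in F4/80-high regions. The libraries ran from 0.00 through 0.291 to 0.518 CPM, from 0.599 through 1.67 to 2.48, and from 0.341 through 2.52 to 4.22. The F4/80-low libraries lay above all non-cystic ones, and 1 F4/80-high library of kidney 1 lay within the non-cystic range. The log2 fold changes against non-cystic regions were 2.41 ± 0.60 (adjusted p = 0.09758) in the F4/80-low set and 2.98 ± 0.60 (adjusted p = 0.003735) in F4/80-high regions. The step of 0.57 ± 0.50 between the cystic types did not pass (adjusted p = 0.4381).

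Lum, which binds collagen in the cornea and many other tissues, was close to absent. Its counts summed to 6 in non-cystic, 39 in the F4/80-low set and 30 in F4/80-high regions, and 5, 3 and 1 of the 6 libraries held none. A library with 0 counts allows up to 0.340 to 0.533 CPM at its depth (3 counts, counting error only). The non-zero counts sat in few libraries: 6 of 6 in non-cystic came from 1 library of kidney 3, and all but 1 of the 39 in F4/80-low came from kidney 2. No comparison was made for this gene, since it failed the filter.

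Fmod, a collagen-binding relative of lumican, was also low, with 14, 28 and 70 counts in the 3 region types. Its libraries ran from 0.00 through 0.340 to 0.909 CPM in the non-cystic set, from 0.00 through 0.538 to 1.42 in the F4/80-low set and from 0.0920 through 0.943 to 3.91 in F4/80-high regions. The 3 sets overlapped, and 39 of the 70 F4/80-high counts came from 1 library of kidney 3. The log2 fold change of F4/80-high against non-cystic regions was 1.74 ± 0.74 and did not pass (adjusted p = 0.08832), nor did 0.87 ± 0.75 with F4/80-low tissue (adjusted p = 0.7755) or 0.87 ± 0.69 between the cystic types (adjusted p = 0.3931).

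Prelp, whose protein anchors basement membranes to the collagen beneath them, rose in F4/80-high regions. Its libraries ran from 3.97 through 14.2 to 24.7 CPM in the non-cystic set, from 7.45 through 14.2 to 27.3 in the F4/80-low set and from 25.9 through 32.7 to 49.6 in F4/80-high regions. F4/80-high libraries lay above all non-cystic ones, and 1 F4/80-low library of kidney 1 lay among them. The log2 fold change was 1.38 ± 0.36 against non-cystic (adjusted p = 0.01644) and 1.27 ± 0.36 against F4/80-low regions (adjusted p = 0.03431). Against non-cystic regions the F4/80-low value was 0.11 ± 0.36 (adjusted p = 0.9551). Neither call held without kidney 1 (1.46, adjusted p = 0.07421, and 1.61, adjusted p = 0.08283) or without replicate 1 of kidney 1 in the F4/80-high regions (1.23, adjusted p = 0.05193, and 1.10, adjusted p = 0.09498), and the call against F4/80-low regions was also lost without the kidney block (1.15, adjusted p = 0.05929). Without replicate 1 of kidney 2 in the non-cystic regions both calls were lost (1.25, adjusted p = 0.0508, and 1.28, adjusted p = 0.06192). The call against F4/80-low regions was further lost without replicate 2 of kidney 3 in the non-cystic regions (1.31, adjusted p = 0.08529). It was also lost without replicate 2 of kidney 1 in the F4/80-low regions (1.23, adjusted p = 0.05164) and with no filter (1.25, adjusted p = 0.06314).

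Ogn, a small leucine-rich protein of connective tissue and vessel walls, also rose in F4/80-high regions. Its libraries ran from 9.23 through 14.7 to 22.4 CPM in the non-cystic set, from 8.30 through 13.7 to 22.6 in the F4/80-low set and from 14.8 through 26.5 to 59.7 in F4/80-high regions. The 3 sets overlapped, and 1 F4/80-high library each of kidneys 1 and 3 stayed at 14.8 and 15.9 CPM while their pair libraries reached 59.7 and 47.3. The log2 fold change was 1.07 ± 0.24 against non-cystic (adjusted p = 0.007034) and 1.13 ± 0.24 against F4/80-low regions (adjusted p = 0.01029), and it was -0.06 ± 0.25 from non-cystic to F4/80-low tissue (adjusted p = 0.9693). Without replicate 1 of kidney 1 in the F4/80-high regions these calls were lost (0.72, adjusted p = 0.1792, and 0.73, adjusted p = 0.2152), as they were without kidney 1 (1.00, adjusted p = 0.05758, and 1.34, adjusted p = 0.05138).

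Vcan, the large hyaluronan-binding proteoglycan of provisional matrix, was low outside F4/80-high regions, with 10, 29 and 170 counts. Its libraries ran from 0.00 through 0.240 to 0.712 CPM in the non-cystic set, from 0.00 through 0.519 to 1.75 in the F4/80-low set and from 0.876 through 2.82 to 7.56 in F4/80-high regions. F4/80-high libraries lay above all non-cystic ones and overlapped the F4/80-low set. The log2 fold change was 3.45 ± 0.86 against non-cystic regions (adjusted p = 0.0106), a call lost without kidney 1 (3.88, adjusted p = 0.06288). It was 2.14 ± 0.79 between the cystic types (adjusted p = 0.07595) and 1.31 ± 0.92 from non-cystic to F4/80-low tissue (adjusted p = 0.6899).

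Of the basement membrane pair Agrn and Hspg2, Agrn rose in F4/80-high regions and Hspg2 did not pass the test. Agrn libraries ran from 19.8 through 21.6 to 25.4 CPM in the non-cystic set, from 20.4 through 40.0 to 46.3 in the F4/80-low set and from 55.0 through 72.4 to 109.8 in F4/80-high regions. F4/80-high libraries lay above all others, and 1 F4/80-low library of kidney 2 lay within the non-cystic range. Agrn rose by 1.66 ± 0.17 against non-cystic (adjusted p = 0.0001686) and by 0.94 ± 0.17 against F4/80-low regions (adjusted p = 0.005217), the smallest SEs among the members, and both calls held under the 30 alternatives run. The F4/80-low value of 0.72 ± 0.17 against non-cystic regions was not called (adjusted p = 0.08727). Hspg2 libraries ran from 7.71 through 10.0 to 13.8 CPM, from 9.06 through 15.1 to 18.8 and from 5.10 through 21.0 to 25.6 in the same order. Its sets overlapped. Replicate 1 of kidney 1 in the F4/80-high regions held the lowest Hspg2 level of all 18 libraries (5.10 CPM), while its pair library held 23.0. The other F4/80-high libraries, from 14.1 CPM up, lay above all non-cystic ones but overlapped the F4/80-low set. The F4/80-low set also overlapped the non-cystic one. The Hspg2 log2 fold change of 0.79 ± 0.29 between F4/80-high and non-cystic regions missed the threshold (adjusted p = 0.05429). It passed in 10 of the 30 alternatives. Among these were the fit without replicate 1 of kidney 1 in the F4/80-high regions (1.04, adjusted p = 0.008799), DESeq2 (0.79, adjusted p = 0.04611) and the stricter filter (0.84, adjusted p = 0.04573). The other Hspg2 values were 0.49 ± 0.29 from non-cystic to F4/80-low tissue (adjusted p = 0.6016) and 0.30 ± 0.29 between the cystic types (adjusted p = 0.4854). The difference between Agrn and Hspg2 was not tested.

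Of the 10 members, 5 (Dcn, Bgn, Prelp, Vcan and Agrn) had all 6 F4/80-high libraries above all 6 non-cystic ones, where 14.3% of all tested genes did. In the F4/80-low comparison 2 (Dcn and Aspn) did, against 1.78% of genes, and between the cystic types 2 (Bgn and Agrn), against 7.35%. Across kidneys, all 9 tested members were higher in F4/80-high than in non-cystic regions in 3 of 3 kidneys. The smallest of these log2 differences were 0.11 for Fmod in kidney 2 and 0.25 for Hspg2 in kidney 1. The share of all tested genes that were higher in 3 of 3 kidneys was not computed, so no excess is read from this count.

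The regions differed in cell markers in the same direction, and the part of these in the results was not tested. Of 10 fibroblast markers, 9 were called higher in F4/80-high than in non-cystic regions. Of all genes tested, 19.7% were called higher and 19.5% lower there. The summed level of the 10 fibroblast markers ran from 125.5 to 237.1 CPM in the non-cystic set and 310.6 to 728.1 in the F4/80-low set. In F4/80-high libraries it ran from 1315 to 3387 CPM. Of these markers, 3 are collagen genes that stand in the collagen list below. Pericyte and smooth muscle markers (10 genes, 7 called higher) ran from 100.9 to 245.5, 127.8 to 443.2 and 335.7 to 970.7 CPM. Macrophage markers (8 of 8 called higher) ran from 70.0 to 146.3, 174.2 to 720.9 and 1860 to 6112 CPM. The region types are defined by F4/80, whose gene Adgre1 is 1 of these markers, so their rise is no independent result. Endothelial markers did not follow: their summed level ran from 211.0 to 335.7, 240.6 to 467.5 and 142.8 to 541.3 CPM, with 1 of 8 called higher and 1 lower. Podocyte markers, which bear on agrin because the glomerular basement membrane holds it, ran from 20.6 to 204.7, 24.9 to 375.1 and 58.5 to 730.6 CPM. Between F4/80-high and non-cystic regions 0 of 7 were called by edgeR, with 1 at an unadjusted p below 0.05 and 2 called by DESeq2. Their median log2 fold change there was 1.75, with a median SE of 1.02. Capsule and mesothelium markers ran from 35.2 to 52.6, 31.6 to 84.9 and 39.4 to 212.2 CPM, with Msln at 0 in the F4/80-low regions and 2 of 6 genes tested. Adipocyte markers ran from 25.5 to 95.5, 58.5 to 344.0 and 21.8 to 150.0 CPM, with Plin1 at 0 in the non-cystic regions. Distal tubule and collecting duct markers ran from 1125 to 4089, 1445 to 5570 and 325.7 to 2353 CPM, with 6 of 9 called lower in F4/80-high than in non-cystic regions, as were 7 of 8 proximal tubule markers. No marker of the fibroblast, pericyte, macrophage, endothelial, podocyte and tubule lists was at 0 over a region type.

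Fibrillar collagens and their fibril partners, the structures that the small leucine-rich proteoglycans bind, rose in F4/80-high regions. Of 15 genes, 14 (and 19.7% of all genes) were called higher and 0 lower between F4/80-high and non-cystic regions (median log2 fold change 2.75, against 1.74 for the 9 members, a difference that was not tested; 0 lower at an unadjusted p below 0.05 and by DESeq2). From non-cystic to F4/80-low tissue 6 were called higher by edgeR, 10 by DESeq2 and 11 at an unadjusted p below 0.05, where edgeR called 1.51% of all genes higher. Between the cystic types 8 were called higher, where 10.3% of all genes were. Col1a1, a chain of type I collagen, went from 6.64 ± 0.263 CPM in non-cystic through 53.5 ± 6.39 to 218.7 ± 108.2 in F4/80-high regions, log2 fold changes of 3.00 ± 0.31 (adjusted p = 0.002518) and 4.95 ± 0.33 (adjusted p = 2.162e-05). Col3a1, of type III collagen, went from 7.25 ± 1.27 to 278.3 ± 90.2 CPM (5.26 ± 0.33, adjusted p = 1.595e-05), and Col1a2 by 4.43 ± 0.33 (adjusted p = 2.692e-05). Fbn1, the microfibril protein fibrillin, rose by 3.86 ± 0.38 (adjusted p = 0.0002436), with an uncertain count since its exons share 2442 bases with a gene on the other strand. Without kidney 1 the F4/80-low calls of Col1a1 (3.1, adjusted p = 0.09666) and of the other 2 collagen chains named were lost.

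Set against Col1a1 in the same library sums, proteoglycan counts were lower in cystic regions. The ratio of Dcn to Col1a1 counts had a median over 3 kidneys of 2.06 in non-cystic, 0.781 in the F4/80-low set and 0.320 in F4/80-high regions, and that of Bgn was 14.3, 4.93 and 3.30. Ogn went from 2.36 through 0.217 to 0.179, Prelp from 2.37 through 0.266 to 0.179, and Agrn from 3.37 through 0.602 to 0.340. All 9 tested members had a lower ratio in 3 of 3 kidneys in both cystic types than in non-cystic regions, and 7 of 9 in F4/80-high than in F4/80-low regions. The same held for Col3a1 in the first 2 comparisons and for 6 of 9 in the last. Col1a1 was chosen as the reference after its values were seen, it is among the genes that changed most in the list, and no test was made of these ratios. Against non-cystic regions Col1a1 rose by 3.00 and 4.95, and no member by more than 2.41 and 3.45. The lower ratios restate these fold changes and are no separate result. The share of all genes with a lower ratio was not computed.

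**Figure D3:**
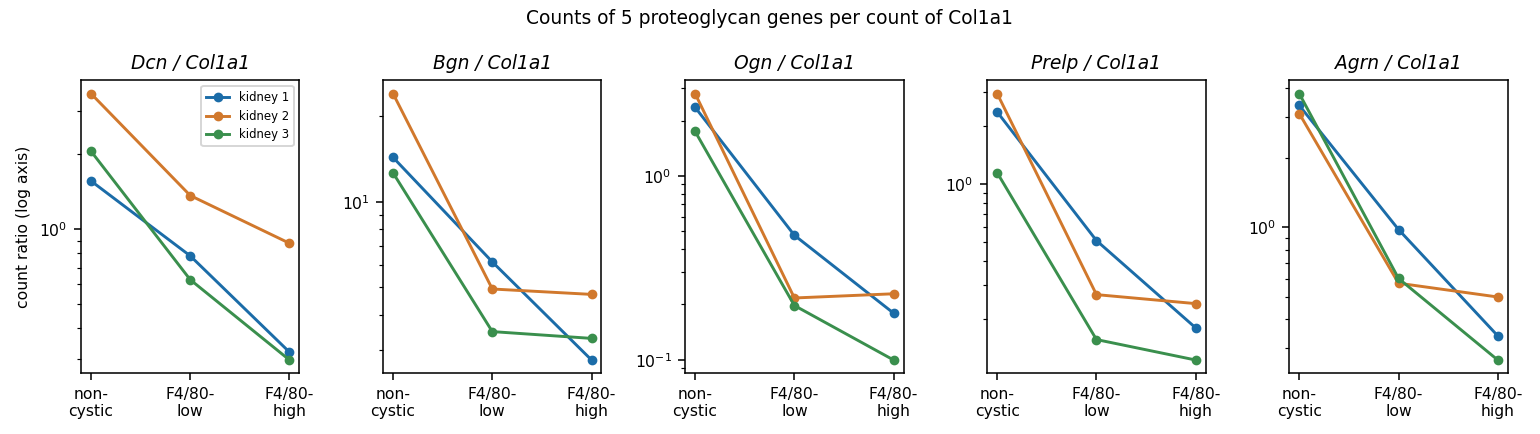
Counts of 5 proteoglycan genes divided by counts of Col1a1 in the same kidney and region type (log y axis), with 1 line per kidney over the 3 region types. Each line drops from non-cystic to F4/80-low regions; for Dcn the medians are 2.06, 0.781 and 0.320.

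Partners of perlecan and agrin in the basement membrane rose in part. Of 19 genes, 11 were called higher and 3 lower in F4/80-high against non-cystic regions (median 1.10), against 19.7% and 19.5% of all genes. From non-cystic to F4/80-low tissue 2 were called higher and 0 lower by edgeR, against 1.51% and 0.0249% of all genes, and 5 and 0 by DESeq2 (10 and 0 at an unadjusted p below 0.05). Between the cystic types 3 were higher and 1 lower, against 10.3% and 14.0% of all genes, and 5 and 1 by DESeq2. Nid1, the linker nidogen, rose by 1.96 ± 0.26 (adjusted p = 0.0004807) and Lama2, a laminin chain, by 1.64 ± 0.19 (adjusted p = 0.0002847). Col4a1, a chain of type IV collagen, rose by 1.61 ± 0.22 in F4/80-high (adjusted p = 0.0006111) and by 1.14 ± 0.22 in F4/80-low regions (adjusted p = 0.03609). Fbln1, a fibulin, rose by 2.30 ± 0.45 in F4/80-low (adjusted p = 0.03896) and by 1.71 ± 0.44 in F4/80-high regions (adjusted p = 0.01282), and Fbln2 by 4.99 ± 0.63 in F4/80-high regions (adjusted p = 0.0005706). Without kidney 1 neither F4/80-low call held (1.10, adjusted p = 0.3437, for Col4a1 and 2.46, adjusted p = 0.3016, for Fbln1), nor did the F4/80-high call of Fbln1 (1.76, adjusted p = 0.08557). With total counts 14 were called higher and 0 lower against non-cystic regions. Exons of Nid1, Lama2 and Col4a1 overlap a gene on the other strand, by 143, 631 and 22 bases.

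Among 33 related core proteins, 22 were tested, and 10 were called higher and 2 lower between F4/80-high and non-cystic regions (median 0.86), against 19.7% and 19.5% of all genes. Smoc2, which encodes a matrix protein, stood at 0.749 ± 0.694 CPM in non-cystic and 68.8 ± 49.9 CPM in F4/80-high regions (log2 fold change 6.36 ± 0.81, adjusted p = 0.001551). Sdc1, the cell surface heparan sulfate proteoglycan syndecan, rose by 2.84 ± 0.41 (adjusted p = 0.0009716). Col18a1, a basement membrane collagen with heparan sulfate chains, rose by 1.99 ± 0.30 (adjusted p = 0.001018), and Cspg4, a chondroitin sulfate proteoglycan of pericytes, by 1.57 ± 0.26 (adjusted p = 0.001518). In F4/80-low against non-cystic regions 0 of 22 were called by edgeR, with 8 at an unadjusted p below 0.05 and 2 called by DESeq2. Between the cystic types 6 were higher and 2 lower, against 10.3% and 14.0% of all genes. With total counts no related core protein was called lower against non-cystic regions.

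Among the enzymes that build the sugar chains, Dse, Dsel and several sulfotransferases rose in F4/80-high regions. Of 22 genes of the linkage region and of chondroitin and dermatan sulfate, 8 were called higher and 5 lower in F4/80-high against non-cystic regions (median 0.66), against 19.7% and 19.5% of all genes, so the lower count is near the share of all genes. With total counts these became 11 and 2. Dse and Dsel, the epimerases that turn chondroitin sulfate into the dermatan sulfate found on decorin and biglycan, rose by 3.46 ± 0.41 (adjusted p = 0.000308) and 2.54 ± 0.46 (adjusted p = 0.002322). Chst12, a chondroitin sulfotransferase, rose by 2.83 ± 0.47 (adjusted p = 0.001551), and Chst7, another, fell by 1.80 ± 0.29 (adjusted p = 0.001181). Of 17 tested heparan sulfate genes 6 were higher and 0 lower (median 0.57; 1 lower at an unadjusted p below 0.05 and 0 by DESeq2), among them the sulfotransferases Hs6st2 (4.52 ± 0.65, adjusted p = 0.001013), Hs3st1 (3.87 ± 0.51, adjusted p = 0.00048) and Hs2st1 (0.90 ± 0.22, adjusted p = 0.009593), whose call was lost without kidney 1 (0.84, adjusted p = 0.09314). Sulf1, which removes sulfate groups, rose by 3.18 ± 0.60 (adjusted p = 0.004259). In F4/80-low against non-cystic regions neither list had a call by edgeR, with 4 genes of each at an unadjusted p below 0.05 and 1 and 2 by DESeq2. Between the cystic types 6 chondroitin and dermatan sulfate genes were higher and 5 lower, and 3 and 0 of the heparan sulfate genes. Of all genes, 10.3% were called higher and 14.0% lower there.

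Hyaluronan genes, proteases and receptors were the remaining lists. Of 10 tested hyaluronan genes 3 were called higher and 0 lower in F4/80-high regions, against 19.7% and 19.5% of all genes, so the higher count is near the share of all genes (0 lower at an unadjusted p below 0.05 and by DESeq2): Cd44, a hyaluronan receptor of many immune cells, by 3.93 ± 0.28 (adjusted p = 2.607e-05), Cemip, a hyaluronan-degrading protein with 3 counts in non-cystic regions, by 3.93 ± 1.04 (adjusted p = 0.01375), and the scavenger receptor Stab1 by 0.86 ± 0.27 (adjusted p = 0.03226). Of 17 proteases that cleave these proteoglycans 7 were higher and 0 lower (median 2.05). DESeq2 called 11 proteases higher and 0 lower, and the same numbers had an unadjusted p below 0.05. Mmp3 went from 8 to 1796 counts and 0.2001 ± 0.274 to 31.4 ± 9.11 CPM (7.40 ± 0.62, adjusted p = 8.766e-05), and Mmp2 and Bmp1 rose by 4.6 ± 0.45 (adjusted p = 0.0002821) and 2.77 ± 0.28 (adjusted p = 0.0001404). Adamts1, which cleaves versican, rose by 2.19 ± 0.29 (adjusted p = 0.0006305). Of 18 receptors and growth factor partners 11 were higher and 3 lower (median 1.32). Tlr2, a Toll-like receptor, rose by 3.86 ± 0.39 (adjusted p = 0.0001327), P2rx7, an ATP receptor, by 2.61 ± 0.33 (adjusted p = 0.0004275), Itgb1, the shared integrin beta chain, by 1.40 ± 0.21 (adjusted p = 0.001024), and the growth factor gene Tgfb2 by 3.23 ± 0.47 (adjusted p = 0.001053). In F4/80-low against non-cystic regions 1 gene of each of the 3 lists was called by edgeR, where 1.51% of all genes were called higher: Cd44 (2.35 ± 0.27, adjusted p = 0.005105), Mmp3 (4.12 ± 0.65, adjusted p = 0.0198) and Tlr2 (3.21 ± 0.38, adjusted p = 0.005661). DESeq2 called 1 hyaluronan gene, 7 proteases and 2 receptors higher there. Each of these 3 edgeR calls was lost without kidney 1 (adjusted p = 0.08353, 0.2477 and 0.06611), as was the F4/80-high call of Stab1 (0.83, adjusted p = 0.1774).

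**Figure D4:**
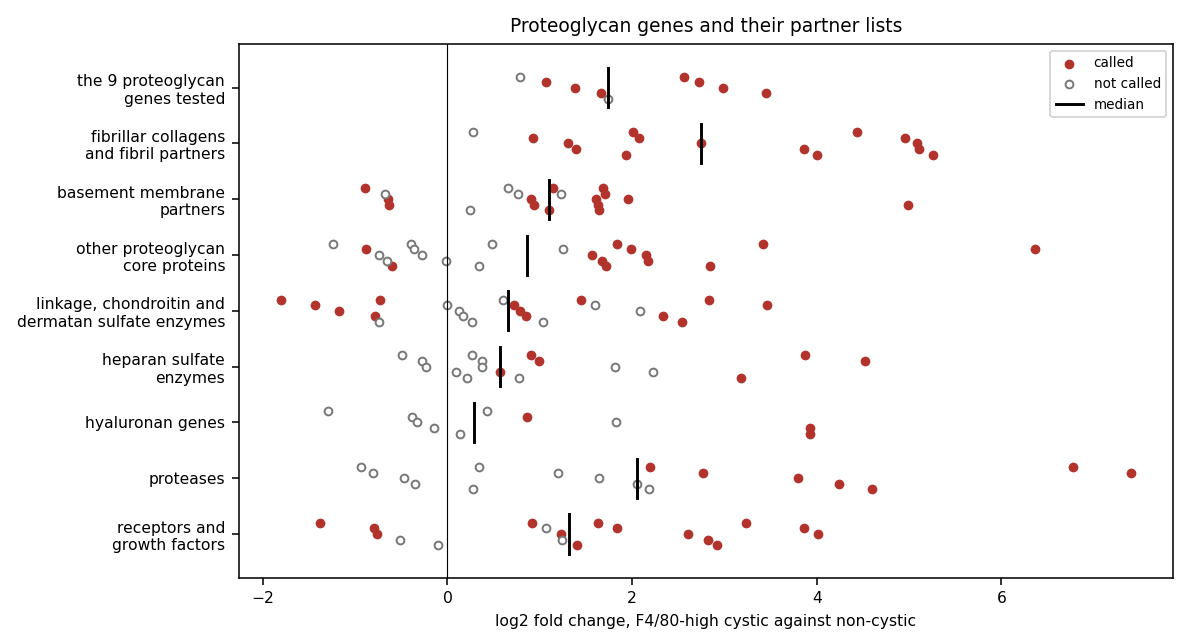
Log2 fold changes between F4/80-high and non-cystic regions (x axis) for the 9 tested proteoglycan genes and for the tested genes of 8 lists (rows); red points are called, open points are not, and the vertical bar is the median. The medians are 1.74 for the proteoglycan genes and 2.75 for the collagen list.

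After the region means were taken off, the 9 members were set against 8848 protein-coding genes over the 18 libraries, whose pairs share a kidney, to name the genes with the most similar levels. Dcn was nearest to Mgp (Pearson r = 0.86), a matrix protein that blocks calcification. Bgn was nearest to Tpm1 (0.90), a tropomyosin of contractile cells, Ogn to Fbln5 (0.89), an elastic fibre protein, and Prelp to Egflam (0.85), a matrix protein. Agrn was nearest to Lair1 (0.86), followed by Arid2 (0.79) and Cx3cr1 (0.78). Vcan was nearest to Sdc1 (0.83), Hspg2 to R3hdm4 (0.92), Aspn to Gimap5 (0.78) and Fmod to Tnrc6a (0.76). Among the members, Ogn and Prelp were closest to each other (r = 0.72, 18 libraries), followed by Vcan and Agrn (0.63). These values describe the libraries and carry no test.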

How the data were processed

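RNA was sequenced in 18 libraries of 3 region types. The authors deposited a table of whole-number counts by gene, which its values show to be unnormalized. The submitters' processing notes name the build mm10 (GRCm38) and, with no roles, HTSeq 0.11.0, fastp 0.20.1 and FastQC 0.11.9. Which aligner, gene annotation and strand option were used is not given in the sources used here. Per the labels' protocols, TRI reagent was used to extract RNA and a low-input NEBNext kit to make libraries; kits of this kind do not mark strand, though the labels do not speak of strand. Library totals were 5366651 to 9188813 counts. The labels mention no molecular identifiers, so floors cover counting error only.

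The 2 libraries that share a kidney and a region type were added together, giving 9 sums. The model was made with edgeR 4.0.16 (R 4.3.3) as a robust quasi-likelihood model after TMM scaling and the filterByExpr filter by region; 1 model held the 3 region types plus the kidney as block and left 4 residual degrees of freedom. In all, 16034 genes with 99.8% of counts were tested, and p-values were Benjamini-Hochberg adjusted over these. SEs were derived from the log2 fold change and its F statistic, as their size divided by its root. Levels are CPM on TMM-scaled library sizes, as mean and SD over 3 kidneys. Library pairs differed by more than sampling noise, and the labels do not say what separates them or whether kidneys are separate animals. With the kidney as block, a p-value sets the mean region difference against the spread left after region and kidney are fitted. That spread is estimated over the 3 region types of these 3 kidneys and drawn towards that of other genes. The sums share a kidney by their labels, which is where the block comes from; correlations of deviations ran from -0.18 to 0.33 for the same kidney.

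The members and lists were chosen with earlier results of these data known. Named genes are the members, up to 4 tested genes per list with the smallest p in the F4/80-high comparison with non-cystic and up to 2 in the F4/80-low one, and the 3 genes most alike to each member (named, protein coding, mean log2 CPM of at least 3); the text gives part of these, picked after the values were seen. Annotation was GENCODE M21 (GRCm38), and promoters were RefSeq's. Alternatives were other scalings, filters and tests (DESeq2 1.42.0), the libraries as separate samples, no block, 2 region types alone, and each kidney or library left out.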

Additional observations from a re-analysis of the deposited data

Results flagged for a closer look

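In 30 sets of 6 libraries (10 genes by 3 region types), 6 held 1 library that stood far from the others by Dixon's test. The nominal rate of that test, about 1 set in 20 by chance, assumes independent and normally distributed values. These sets hold CPM of counts, some of them low, and library pairs share a kidney. The 6 flagged sets therefore cannot be set against that rate, and no excess is read from them. Lum reached 1.364 CPM (6 counts) in replicate 2 of kidney 3 in non-cystic regions, where the other libraries had none, and 3.929 CPM (27 counts) in replicate 2 of kidney 2 in F4/80-low regions, where the next was 1.298. In F4/80-high regions 4 of the flagged values were the highest of a member and came from kidney 3. Replicate 1 held Bgn at 1412 CPM (next 719.2) and Fmod at 3.914 CPM (39 counts, next 1.224). Replicate 2 held Vcan at 7.561 CPM (next 3.126) and Agrn at 109.8 CPM (next 74.26). In replicate 1 the summed pericyte and smooth muscle markers (970.7 CPM), podocyte markers (730.6 CPM) and endothelial markers (541.3 CPM) were also the highest of the F4/80-high libraries. In replicate 2 the macrophage markers (6112 CPM) and the capsule and mesothelium markers (212.2 CPM) were. The part of these markers in the flagged values was not tested.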

How the results depend on the processing

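Each result was recomputed under up to 30 alternatives, fewer for genes that failed a filter. The count of members called in F4/80-low against non-cystic regions, 1, was 3 with no filter, 3 by the DESeq2 Wald test, 4 with the 18 libraries as separate samples, 2 with the 2 region types alone and 0 with no replicate block. It ran from 0 to 3 over left-out kidneys or libraries (0 without kidney 1, 3 without kidney 3). Beside Dcn, the members called there in some alternatives were Bgn (in 4), Aspn (in 3) and Agrn (in 3). DESeq2 called Bgn (1.16, adjusted p = 0.02388) and Aspn (2.41, adjusted p = 0.02322) there. The count in F4/80-high against non-cystic regions, 7, was 8 without the block and 4 to 9 over left-out kidneys or libraries (4 without kidney 1). The count between the cystic types, 5, was 3 with the 2 region types alone (Dcn and Bgn lost), 4 without the block and 1 to 6 over left-out kidneys or libraries (1 without kidney 1, and 3 without replicate 1 of kidney 1 in F4/80-high regions). The block changed no call of a member beyond those given for Dcn and Prelp and those gained without it for Hspg2 (0.79, adjusted p = 0.03364) and Vcan between the cystic types (2.19, adjusted p = 0.03912). Dcn, Bgn and Agrn kept the F4/80-high call against non-cystic regions in all 30 alternatives, and Aspn in the 29 that tested it. In F4/80-low against non-cystic regions Ogn (-0.06) was 0.07 with total counts and ran from -0.34 to 0.28 over left-out kidneys or libraries, and Prelp (0.11) from -0.14 to 0.46. Between the cystic types Fmod (0.87) ran from -0.16 to 1.5 and Hspg2 (0.30) from -0.17 to 0.58. None of these 4 was called. Over all genes, 246 were called in F4/80-low against non-cystic regions against 23 without kidney 1, 578 without kidney 3, 31 without replicate 2 of kidney 2 in F4/80-low regions, 523 with no filter, 601 with 18 libraries and 675 by DESeq2. In F4/80-high against non-cystic regions 6289 were called and 3359 without kidney 1, and between the cystic types 3895, against 988 without kidney 1, 2266 without kidney 2 and 2413 with the 2 region types alone. Without kidney 1, 9, 3 and 16 calls of named list genes were lost in the 3 comparisons in order. Those 9 were all the F4/80-low calls of named list genes. Where a cause is not the smaller number of samples or genes, it was not tested. Depth limits Lum, Fmod, Aspn and Vcan.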

Other observations

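The small leucine-rich genes next to the members along the chromosomes were described too, chosen by their place in the genome. Kera and Epyc, which follow Dcn and Lum on chromosome 10 and encode proteoglycans of cornea and cartilage, had 0 counts in all 18 libraries, which allows up to 0.0779, 0.0686 and 0.0530 CPM in non-cystic, F4/80-low and F4/80-high regions (3 counts over 6 libraries, counting error only). Omd, osteomodulin, between Aspn and Ogn on chromosome 13, had 231, 153 and 254 counts. Its log2 fold change was -0.66 ± 0.42 in F4/80-high against non-cystic regions (adjusted p = 0.2446), with 2 of 3 kidneys lower. Ecm2, on the other side of Aspn, rose by 2.15 ± 0.39 (adjusted p = 0.002435), from 2.08 ± 1.23 to 9.21 ± 3.50 CPM (SD, n = 3 kidneys), higher in 3 of 3 kidneys. Optc, next to Prelp, had 0, 6 and 18 counts.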
